A study of Mus musculus with 10 samples.

Results

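Cancer-associated fibroblast genes are genes that fibroblasts of the tumor stroma are known to express, and 10 of them were followed here: Fap, Pdgfra, Postn, Tnc, Tnn, Lrrc15, Thbs2, Sparc, Fbn1 and Lox. They are 10 of the 21959 genes of the deposited table and were matched by gene name. All 10 were kept by the low-count filter, which left 13517 genes for testing. Tnn and Lrrc15 were chosen by their difference between the groups, as both were in the list of genes with at least a 2-fold difference, so their group difference is described without a test. The other 8 were listed by name.

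RNA of 10 tumors was sequenced. All tumors came from the mouse mammary carcinoma line 4T1, which stands for triple-negative disease in many studies, placed under the skin of the abdomen of female BALB/c mice that were 5 to 6 weeks old when obtained. In the exercise group (E, 5 tumors) the mice had voluntary access to a running wheel, and in the non-exercise group (NE, 5 tumors) they had none. All tumors were removed on day 21, and the single cell line and the subcutaneous site limit both groups as a model.

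Fibroblasts build and remodel the extracellular matrix. In tumors they are activated by transforming growth factor beta and platelet-derived growth factor, deposit collagens and matricellular proteins (matrix proteins that signal to cells rather than bear load), and cross-link the matrix into stiffer fibers. Different fibroblast states are recognised in mammary tumors, among them a contractile myofibroblastic state and an inflammatory state that secretes cytokines.

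The whole tumor was sequenced, so that fewer cells of a type and less RNA per cell cannot be told apart in these values. The reads assigned to genes totalled 15045613 to 20646763 per library in E and 18706032 to 23092251 in NE, and E5 was the shallowest (exact two-sided permutation test of the totals, p = 0.0317). All 7 fibroblast identity markers (Dcn, Lum, Col1a1, Col1a2, Pdgfrb, Thy1 and Pdpn) were present in every tumor. Epithelial markers of carcinoma cells were low: their 9 genes summed to 19.8 to 28.9 CPM (reads scaled to a common library total) in E and to 25.2 to 51.3 in NE, and Krt8, Cldn3, Cldn4 and Esrp1 were at 0 in at least 1 tumor. NE4 stood apart by skeletal muscle genes (26626 CPM over 12 genes, against 6.15 to 3773 in the other tumors), NE5 by hair follicle and skin genes (121 CPM against at most 2.32), and NE1 held the lowest sum of fibroblast identity markers (293 CPM). E5 held the highest sums of fibroblast identity markers (8448 CPM) and of neutrophil markers (573 CPM). Values of the 10 genes without such a tumor stand beside those that it moved most.

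The 10 genes differ widely in position and size. Tnn lies on the reverse strand of chromosome 1 (GRCm38, chr1:160085029-160153580, 22 exons), and Lrrc15 on the reverse strand of chromosome 16 (chr16:30269302-30283256, 2 exons). Postn lies on the forward strand of chromosome 3 (chr3:54361109-54391037), Sparc on the reverse strand of chromosome 11 (chr11:55394500-55423183), and Fbn1, with 66 exons, on the reverse strand of chromosome 2 (chr2:125300594-125507993). Fap lies on the same chromosome (chr2:62500943-62574075). Pdgfra (chr5:75152292-75198215), Tnc (chr4:63959785-64047015) and Thbs2 (chr17:14665500-14694235) are on chromosomes of their own. No stretch of 50 bases in the first annotated transcript of any of the 10 genes occurred, in the same direction, in a transcript of another gene. Other transcripts of the 10 genes and the reverse direction were not searched. Exons of Pdgfra overlap Gm42802 on the other strand and Mir7025, and exons of Fbn1 overlap Gm9913 on the other strand. Whether the reads were counted by strand is not given in the sources used here.

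Promoters of 4 of the genes are shown because the first and second (Tnn and Lrrc15) were the pair of the 10 genes with the highest correlation across the tumors, Postn belonged to the genes that ran less closely with them, and Sparc was the most abundant. Each sequence is the 250 bases before the annotated start, written 5′ to 3′ on the strand of the gene (RefSeq, GRCm38.p6), and capitals mark a match to a searched motif.
Tnn, chr1:160153576-160153825, reverse strand: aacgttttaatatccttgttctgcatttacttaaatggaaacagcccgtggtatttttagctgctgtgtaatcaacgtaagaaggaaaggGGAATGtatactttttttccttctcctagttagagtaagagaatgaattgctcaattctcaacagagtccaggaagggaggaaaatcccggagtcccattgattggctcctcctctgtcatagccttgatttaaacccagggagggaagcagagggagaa
Lrrc15, chr16:30283255-30283504, reverse strand: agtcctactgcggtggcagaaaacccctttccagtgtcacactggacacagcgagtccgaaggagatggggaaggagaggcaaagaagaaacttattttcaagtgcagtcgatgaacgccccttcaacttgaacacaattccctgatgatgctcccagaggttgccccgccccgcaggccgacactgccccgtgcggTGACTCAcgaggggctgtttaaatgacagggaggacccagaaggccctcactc
Postn, chr3:54360857-54361106, forward strand: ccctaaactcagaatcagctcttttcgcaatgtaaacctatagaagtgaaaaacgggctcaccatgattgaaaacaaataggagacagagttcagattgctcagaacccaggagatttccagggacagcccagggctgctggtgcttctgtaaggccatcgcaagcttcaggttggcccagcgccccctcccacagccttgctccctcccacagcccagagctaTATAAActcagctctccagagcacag
Sparc, chr11:55420081-55420330, reverse strand: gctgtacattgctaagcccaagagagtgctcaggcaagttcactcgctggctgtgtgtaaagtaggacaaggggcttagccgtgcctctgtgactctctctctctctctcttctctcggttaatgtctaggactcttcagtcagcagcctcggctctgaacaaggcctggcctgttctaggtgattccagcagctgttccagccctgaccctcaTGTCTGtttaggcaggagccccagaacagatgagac

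The motifs searched on both strands were the TATA box (TATAAA), the AP-1 site (TGANTCA), the TEAD site (GGAATG), the SMAD-binding element (CAGACA) and the CArG box of serum response factor. Of the 10 genes, 8 had a promoter entry. The capitals mark a TEAD match 160 to 155 bases before the start of Tnn, which was also found in 12.6% of the 32851 promoters of the same length. In Lrrc15 they mark an AP-1 match 53 to 47 bases before the start (6.75% of promoters), a motif that reads the same on both strands and so was matched on each. In Postn they mark a TATA match 26 to 21 bases before the start (12.4% of promoters). In Sparc they mark a SMAD match on the other strand, 36 to 31 bases before the start (17.1% of promoters). SMAD matches were also in the promoters of Tnc and Thbs2, and TATA matches as well. No CArG box was found in the 8 windows (1.47% of promoters). A match describes the letters and not a site of binding.

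In FPKM, which scale the reads by gene length and total count, the levels spanned from 0.895 for Fap to 648 for Sparc as the mean of 10 tumors. The length is that of the deposited table, and comparisons between genes depend on it. It was 8702 bases for Postn and 5662 for Fap, whose first annotated transcripts have 3189 and 2187. For Tnn (5817) and Lrrc15 (5310) the table and the first transcript gave the same length. The order of the means was Sparc, Thbs2 (59.0), Tnc (30.2), Postn (23.3), Fbn1 (22.5), Lox (18.4), Pdgfra (7.53), Lrrc15 (4.81), Tnn (2.17) and Fap. Sparc was above Thbs2, Thbs2 above Tnc and Lrrc15 above Tnn in 10 of 10 tumors. By these lengths, Postn and Fbn1 could not be ordered, as Postn was the higher in 3 of 10 tumors, and Tnn was above Fap in 5 of 10. Fap, which encodes fibroblast activation protein, was at the lower end of the 10 genes by the same lengths. Whether these orders hold with transcript lengths was not tested.

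**Figure D1:**
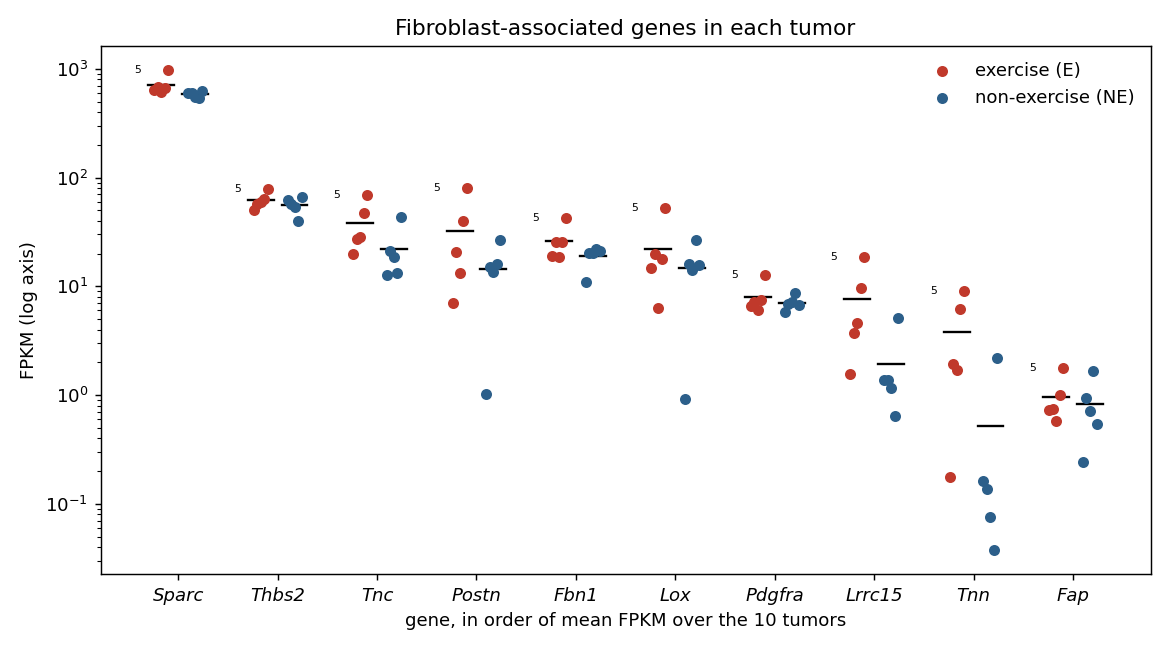
FPKM of the 10 genes in each tumor on a logarithmic axis, with genes ordered by their mean over the 10 tumors, red points for exercise (E, n = 5), blue points for non-exercise (NE, n = 5), black bars for group means and the numeral 5 beside E5. E5 is the highest point of every gene, and the points of E and NE overlap for all 10 genes.

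The 3 cell surface genes came first by role. Fap encodes a serine protease of the fibroblast membrane. It measured 0.727, 0.748, 0.574, 1.01 and 1.78 FPKM in E1 to E5 and 0.245, 0.944, 0.707, 1.67 and 0.545 FPKM in NE1 to NE5. Between 32 and 217 reads stood behind these values. The groups overlapped over most of their range, with E5 and NE4 the 2 highest tumors and NE1 the lowest. The mean was 0.969 ± 0.482 FPKM for E and 0.822 ± 0.538 for NE, where ± gives the SD over 5 tumors here and in all means that follow. The log2 fold change of 0.18 (SE 0.48) did not pass the quasi-likelihood test of edgeR (p adjusted after Benjamini and Hochberg over all genes tested, adjusted p = 0.962). It was -0.15 without E5, -0.05 without NE1 and 0.65 without NE4, so its direction rested on single tumors.

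Pdgfra encodes the receptor alpha for platelet-derived growth factors and marks fibroblasts in many tissues. It measured 6.60, 7.25, 6.08, 7.42 and 12.7 FPKM in E1 to E5 and 5.78, 6.82, 7.15, 8.76 and 6.80 FPKM in NE1 to NE5. E5 was the one tumor clear of the rest, and the other 4 of E lay within the range of NE. The means were 7.999 ± 2.65 and 7.06 ± 1.08 FPKM, with a log2 fold change of 0.14 (SE 0.20, edgeR adjusted p = 0.933), which was -0.081 without E5.

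Lrrc15 encodes a leucine-rich repeat membrane protein that is used as a marker of myofibroblastic cells. It measured 1.56, 3.75, 4.61, 9.72 and 18.8 FPKM in E1 to E5 (171 to 1501 reads) and 1.39, 1.37, 1.15, 0.640 and 5.08 FPKM in NE1 to NE5 (78 to 577 reads). All 5 tumors of E were above 4 of the 5 tumors of NE, while NE5 was above E1, E2 and E3. In E1 the reads amounted to 8.28 CPM of the total count (95% Wilson interval 7.13 to 9.62). This interval, which covers counting error only, overlapped those of NE1 (7.36, 6.34 to 8.55) and NE2 (7.27, 6.15 to 8.60). Of the 25 pairings of a tumor of E with one of NE, E was the higher in 22. The means, which chose this gene, were 7.68 ± 6.89 and 1.93 ± 1.79 FPKM, a ratio of 3.99 and a log2 fold change of 1.96 (SE 0.71). The latter was 1.32 without E5 and 2.73 without NE5.

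The 5 matricellular genes included the widest range. Tnn encodes tenascin-W, a tenascin known from bone and from tumor stroma. It measured 0.175, 1.92, 1.69, 6.23 and 9.11 FPKM in E1 to E5, from 21, 208, 203, 672 and 797 reads. In NE1 to NE5 it measured 0.164, 0.138, 0.0757, 0.0375 and 2.18 FPKM, from 22, 15, 10, 5 and 271 reads. The tumors formed no clean division by group: E1 was at the level of the 4 low tumors of NE, and NE5 was above E1, E2 and E3. In E1 the reads amounted to 1.02 CPM of the total count (95% Wilson interval 0.665 to 1.55) and in NE1 to 0.953 (0.629 to 1.44), so that these 2 tumors were not distinguishable at this depth. NE4, with the lowest level, gave 0.218 CPM (0.0931 to 0.510). These intervals cover counting error only. The means, which chose this gene too, were 3.82 ± 3.71 and 0.519 ± 0.929 FPKM, a ratio of 7.37 and a log2 fold change of 2.84 (SE 1.21), and E was the higher in 22 of 25 pairings. The log2 fold change was 2.24 without E5 and 5.17 without NE5.

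Tnc encodes tenascin-C, the tenascin of wound and tumor matrix. It measured 19.98, 27.0, 28.6, 47.7 and 69.6 FPKM in E1 to E5 and 12.7, 21.0, 18.8, 13.3 and 43.7 FPKM in NE1 to NE5. The pattern over tumors resembled that of Lrrc15, with NE5 alone reaching into the upper range of E, and E was the higher in 21 of 25 pairings. The means were 38.6 ± 20.2 and 21.9 ± 12.7 FPKM, with a log2 fold change of 0.78 (SE 0.41) that did not pass the test (edgeR, adjusted p = 0.897). Without NE5 it was 1.20, with an adjusted p of 0.895 in edgeR.

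Postn encodes periostin, which binds collagen and integrins. It measured 7.10, 20.7, 13.1, 39.5 and 80.6 FPKM in E1 to E5 and 1.03, 14.9, 13.6, 15.9 and 26.9 FPKM in NE1 to NE5. E4 and E5 were above every tumor of NE, E1 and E3 were below 4 of the 5, and NE1 was far below the rest. The means were 32.2 ± 29.7 and 14.5 ± 9.19 FPKM, a log2 fold change of 1.10 (SE 0.78, edgeR adjusted p = 0.897), and without E5 it was 0.43.

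Thbs2 encodes thrombospondin 2, an inhibitor of blood vessel growth, and Sparc encodes osteonectin, a collagen-binding glycoprotein. Thbs2 measured 50.6, 57.6, 60.1, 64.2 and 79.2 FPKM in E1 to E5 and 61.8, 56.7, 53.5, 39.9 and 66.3 FPKM in NE1 to NE5, with a log2 fold change of 0.13 (SE 0.14, edgeR adjusted p = 0.906) that was 0.04 without E5 and 0.05 without NE4. Sparc measured 632, 687, 610, 673 and 976 FPKM in E1 to E5 and 595, 598, 548, 533 and 631 FPKM in NE1 to NE5. Sparc was the gene with the least overlap, as E was the higher in 24 of 25 pairings in FPKM and the single exception was E3 against NE5. E1 was only just above NE5 in FPKM (632 and 631), and in CPM it was below NE5. The means of Sparc were 715 ± 149 and 581 ± 39.8 FPKM, a log2 fold change of 0.27 (SE 0.12). The unadjusted p was 0.0431 and the adjusted p 0.897 in edgeR, and the log2 fold change was 0.13 without E5.

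The 2 fiber genes were Fbn1, which encodes fibrillin-1, the backbone of microfibrils, and Lox, which encodes the lysyl oxidase that starts the cross-linking of collagen and elastin. Fbn1 measured 19.2, 25.6, 18.7, 25.4 and 42.1 FPKM in E1 to E5 and 11.0, 20.2, 20.05, 22.0 and 21.2 FPKM in NE1 to NE5. The last 4 of these tumors of NE lay close together, inside the range of E, and NE1 lay below every other tumor. The means of Fbn1 were 26.2 ± 9.47 and 18.9 ± 4.47 FPKM, with a log2 fold change of 0.43 (SE 0.25, edgeR adjusted p = 0.897), and 0.20 without E5. Lox measured 14.6, 19.8, 6.26, 17.7 and 52.7 FPKM in E1 to E5 and 0.915, 16.1, 14.0, 26.6 and 15.7 FPKM in NE1 to NE5. E5 and NE4 were its highest tumors and NE1 and E3 its lowest, so that each group held 1 of the high and 1 of the low. The log2 fold change of Lox was 0.54 (SE 0.71, edgeR adjusted p = 0.930). It was -0.058 without E5, 0.25 without NE1 and 0.91 without NE4, so that its direction rested on E5.

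Against the background of all genes, no gene of the 13517 tested was called in edgeR, which took a change of 2-fold or more and an adjusted p no higher than 0.05 (0%), and none of the 8 genes listed by name was. At an unadjusted p of at most 0.05, 657 genes passed in edgeR in either direction, and DESeq2, limma-voom and limma-trend also called 0 genes at the same thresholds. Higher in E at an unadjusted p of at most 0.05 were 347 genes (2.57%), and 1 of the 8 listed genes (Sparc). A change of 2-fold or more with such a p held for 27 genes higher in E (0.2%) and for none of the 8. The log2 fold change was above 0 for 46.0% of all genes and for 10 of the 10 members, with a median of 0.49 against -0.01 for all genes. Without E5, 7 of the 10 were above 0, and the median was 0.17. The groups did not overlap for 0.718% of all genes and for none of the 10. In these counts over 10, the 2 genes chosen by their difference are included.

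Beside the 2-fold limit of the list that chose Tnn and Lrrc15, Postn, at a log2 fold change of 1.10, was the nearest member past 2-fold, with an unadjusted p of 0.184 in edgeR, and it was not in that list. Lrrc15, at 1.96, was the nearer of the 2 genes chosen by it. Tnc, at 0.78, was the nearest member below 2-fold.

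**Figure D2:**
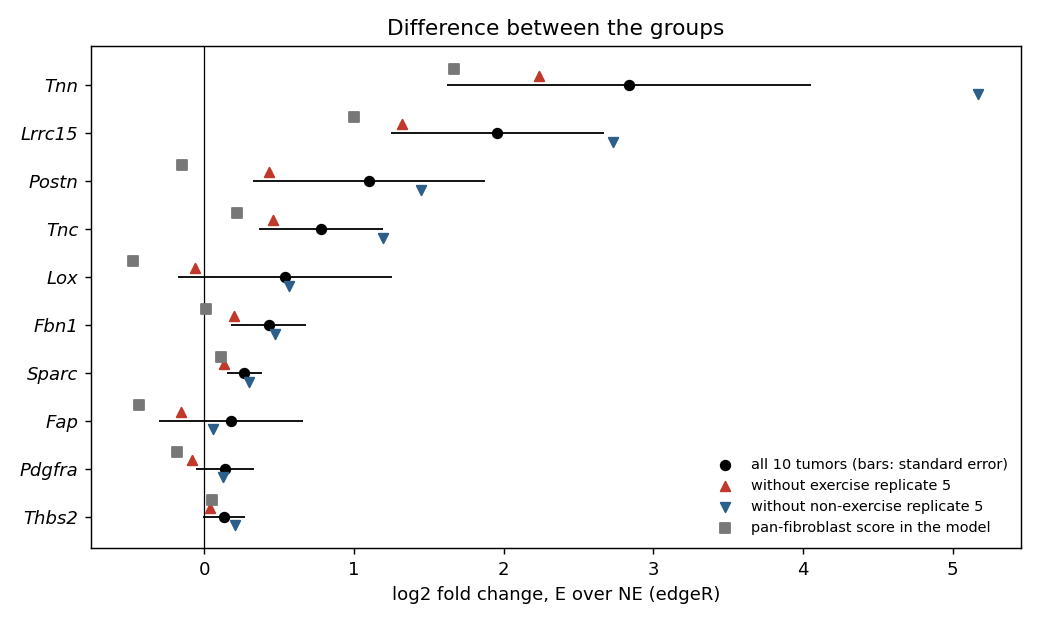
Log2 fold change of each gene, E over NE, from edgeR with all 10 tumors (black points with bars of 1 standard error), without E5 (red triangles), without NE5 (blue triangles) and with the pan-fibroblast score in the model (grey squares). All 10 black points are above 0, while 3 of the red triangles and 4 of the grey squares are below it, and the value of Tnn is 5.17 without NE5.

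The same tumors stood at the ends of these ranges. E5 was the highest tumor for all 10 genes. The lowest was NE1 for Fap, Pdgfra, Postn, Tnc, Fbn1 and Lox and NE4 for Tnn, Lrrc15, Thbs2 and Sparc. Summed over the 10 genes, the level was 752, 851, 750, 892 and 1342 FPKM in E1 to E5 and 690, 736, 677, 662 and 819 FPKM in NE1 to NE5. The mean sum was 917 ± 246 FPKM in E, 811 without E5, and 717 ± 63.6 in NE, and the groups overlapped because NE5 was above E1 and E3. Sparc alone made up 80.0% of the sum. Without Sparc the sums were 202 ± 99.1 FPKM in E and 136 ± 33.6 in NE.

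The ratio of the highest to the lowest tumor differed widely between the genes. It was 243 for Tnn, 78.6 for Postn, 57.6 for Lox and 29.4 for Lrrc15. It was between 3.82 and 7.29 for Fap, Tnc and Fbn1 and was 2.19 for Pdgfra, 1.99 for Thbs2 and 1.83 for Sparc. The high ratios of Postn and Lox rested largely on NE1, at 1.03 and 0.915 FPKM. The next lowest tumors were E1 for Postn (7.10 FPKM) and E3 for Lox (6.26 FPKM). The SD of log2(CPM + 1) over the 10 tumors placed Tnn at the 99.7th percentile of all genes tested, Postn at the 99.2nd, Lox at the 98.9th and Lrrc15 at the 98.8th. Sparc, at the 63.7th percentile with an SD of 0.23, and Thbs2, at the 67.8th with 0.24, were nearer to the median gene, whose SD was 0.18. The SD over the 10 tumors includes the difference between the groups that chose Tnn and Lrrc15. The SD within groups, which leaves that difference out, placed Tnn at the 99.1st percentile, Postn at the 99.0th, Lox at the 98.9th and Lrrc15 at the 98.0th. Within E the SD of Postn and Lox was lower than within NE (1.34 against 1.81 and 1.06 against 1.83), which rested on NE1: without it, the SD within NE was 0.44 for Postn and 0.43 for Lox, below that of E. That of Tnn and Lrrc15 was higher within E (1.85 against 1.43 and 1.31 against 0.98), and for Lrrc15 it was 1.03 without E5.

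**Figure D3:**
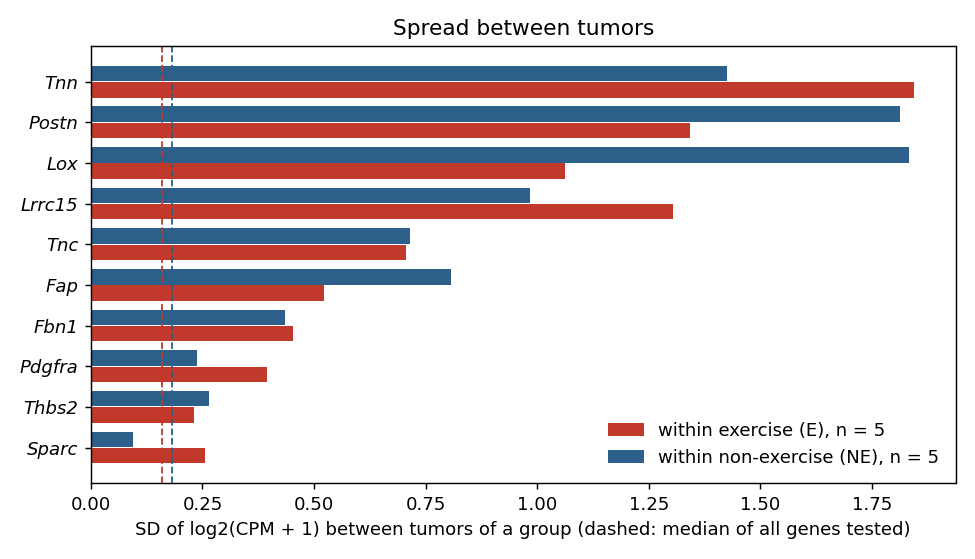
SD of log2(CPM + 1) of each gene between the 5 tumors of E (red bars) and the 5 of NE (blue bars), with dashed lines for the median of all genes tested in each group. Tnn, Postn, Lox and Lrrc15 have the longest bars, and the bars of Sparc and Thbs2 are the shortest.

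The 10 genes did not move as 1 block. Over the 45 pairs, the median Pearson correlation of log2(CPM + 1) across the 10 tumors was 0.72, and it ranged from -0.13 (Fap with Thbs2) to 0.98 (Tnn with Lrrc15). When arranged by these values, which were seen first, Fap, Pdgfra, Postn, Fbn1 and Lox made up one set with a median r of 0.86 (10 pairs, 0.72 to 0.95). Tnc, Tnn, Lrrc15, Thbs2 and Sparc made up the other with a median r of 0.83 (10 pairs, 0.74 to 0.98). Between the sets the median was 0.43 (25 pairs, -0.13 to 0.81), so the ranges within and between the sets overlapped. With the group means subtracted, these medians were 0.87, 0.79 and 0.40. Without E5, the median between the sets was 0.05 while it was 0.82 and 0.79 within them, and without NE4 it was 0.71 between the sets. Without NE1, the lowest pair within the set of Fap was 0.50, and the highest pair between the sets was 0.89. The values of all pairs come from the same 10 libraries and share their depth and their content of other cell types. Tnn with Lrrc15 was 0.98 without E5 as well.

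**Figure D4:**
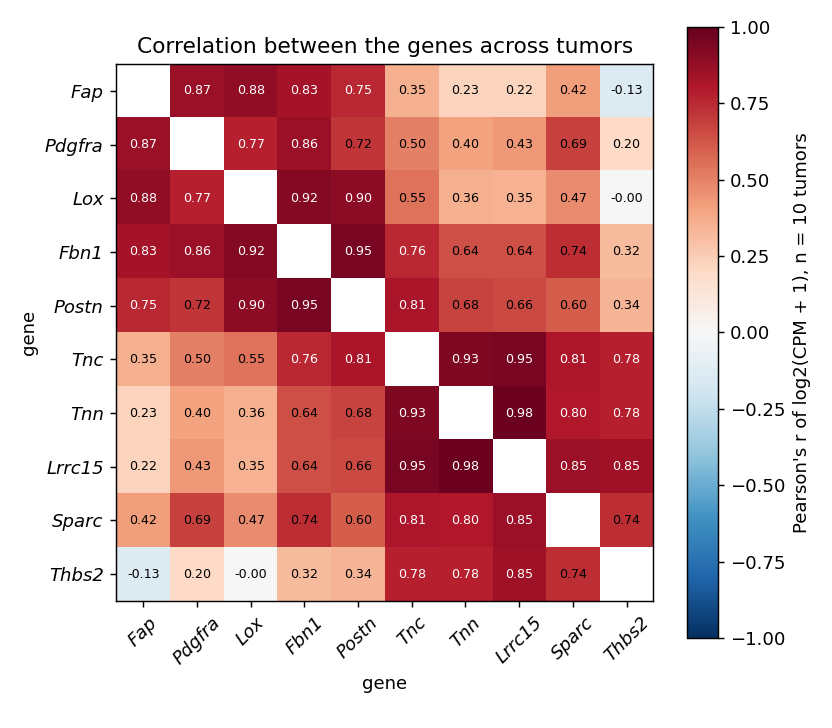
Pearson correlation of log2(CPM + 1) across the 10 tumors for each pair of the 10 genes, from blue (-1) through white (0) to red (1), with both axes in the same order of genes. Dark red squares lie at the upper left (Fap, Pdgfra, Lox, Fbn1 and Postn) and the lower right (Tnc, Tnn, Lrrc15, Sparc and Thbs2), and the palest squares pair Thbs2 with Fap or Lox.

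Other genes that the fibroblast lists hold gave the background for these levels. The pan-fibroblast reference list (14 genes of fibrillar and other collagens, Dcn, Lum and matrix proteins) summed to 5948, 7288, 5180, 8496 and 20722 CPM in E1 to E5 and to 3594, 5033, 4960, 7408 and 7185 CPM in NE1 to NE5. E5 was again far above the rest and NE1 the lowest. Its 14 genes all had a log2 fold change above 0 (median 0.60), and 3 of them (Fstl1, Col5a1 and Col6a1) had an unadjusted p of at most 0.05, with none called. Col5a1, a fibrillar collagen chain, was at 65.2 ± 21.4 FPKM in E and 44.2 ± 6.92 in NE (log2 fold change 0.53, SE 0.19). Col3a1, the most abundant of the list with Pcolce, was at 308 ± 240 and 162 ± 66.6 FPKM.

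Set against the reads of this reference list, the order of the group means changed for 6 of the 10 genes. Per 1000 reads of the reference, Lrrc15 gave 3.91 ± 1.85 reads in E and 1.80 ± 1.25 in NE, and Tnn 2.06 ± 1.48 and 0.466 ± 0.745. Sparc gave 334 ± 107 and 423 ± 129, Thbs2 54.8 ± 20.1 and 75.8 ± 28.8, and Pdgfra 9.47 ± 2.32 and 13.2 ± 2.38, so that the mean of E was the lower for these 3. It was also the lower for Fap (0.606 ± 0.0854 and 0.805 ± 0.407), Fbn1 (37.0 ± 7.91 and 41.8 ± 6.82) and Lox (10.4 ± 2.73 and 11.7 ± 6.44), and so for 6 of the 10 genes. In edgeR with the pan-fibroblast score as a covariate, 6 of the 10 genes had a log2 fold change above 0. It was 1.67 (SE 1.06) for Tnn, 0.999 (SE 0.63) for Lrrc15, -0.47 (SE 0.44) for Lox and -0.43 (SE 0.33) for Fap, and the adjusted p of the 8 listed genes lay above the threshold. Fbn1 was closest to 0, at 0.01 (SE 0.09), and its correlation with the pan-fibroblast score was 0.97 across the 10 tumors. That was the highest of the 10 genes, and the lowest was 0.36 for Thbs2. Without E5 the correlation was -0.14 for Thbs2, 0.41 for Sparc and 0.43 for Lrrc15, and from 0.51 (Tnn) to 0.95 (Fbn1) for the rest.

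Of the lists of fibroblast states, the myofibroblastic list had 14 of 16 genes tested, 11 of them with a log2 fold change above 0 (median 0.31) and 4 with an unadjusted p of at most 0.05 higher in E. Among these were Pdpn, a membrane glycoprotein, at 33.8 ± 9.30 and 23.4 ± 3.39 FPKM, the protease gene Mmp11, at 18.3 ± 1.59 and 13.4 ± 3.74, and the fibril-associated collagen gene Col12a1, at 23.7 ± 17.1 and 10.9 ± 4.54. The most abundant genes of the list, Tpm1 and Tpm2, are contractile genes that skeletal muscle also expresses. Tpm1 was at 167 ± 10.6 and 215 ± 112 FPKM and Tpm2 at 40.5 ± 25.1 and 128 ± 221. The higher means of NE rested on NE4, without which they were 166 ± 15.1 for Tpm1 and 28.7 ± 12.5 for Tpm2. The smooth muscle actin gene Acta2 was at 17.9 ± 6.99 and 13.2 ± 4.92 FPKM (log2 fold change 0.39, SE 0.30). The myosin light chain gene Myl9 was at 6.09 ± 1.81 and 5.37 ± 3.76 (log2 fold change 0.12, SE 0.40), and neither gene passed the test. Without NE4 the means of NE were 11.1 ± 1.44 for Acta2 and 3.70 ± 0.331 for Myl9. Cnn1, of the same list, went the other way, at 0.244 ± 0.0890 and 0.287 ± 0.172 FPKM (log2 fold change -0.27, SE 0.42). Tagln, at 0.121 FPKM on average, was not tested. These 4 genes were named after their values were seen. Of 15 inflammatory fibroblast genes, 10 were above 0 (median 0.28) and 0 had a p of at most 0.05. Ccl2 was at 144 ± 22.1 and 119 ± 17.1 FPKM and Lif at 5.43 ± 0.528 and 4.35 ± 0.794, while Ly6c1, the most abundant of the list, was at 310 ± 32.5 and 336 ± 34.7 (log2 fold change -0.14, SE 0.09). The 7 antigen-presenting fibroblast genes had a median of -0.21, with 0 at that p. Immune cells also express Cd74 and H2-Eb1, which lead this list.

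The growth factors around the members were examined in the same way. Of the 6 PDGF ligands and receptors, 4 had a log2 fold change above 0 (median 0.23) and 0 had a p of at most 0.05. Pdgfc, a ligand of the receptor that Pdgfra encodes, was at 28.6 ± 4.39 FPKM in E and 22.5 ± 4.85 in NE (log2 fold change 0.32, SE 0.16). Pdgfa, another ligand of it, was at 14.3 ± 1.45 and 14.8 ± 1.01. Of the TGF-beta ligands, receptors and early targets, all 16 genes found in the deposited table were tested, and all 16 were above 0, with a median of 0.16. Ski, a repressor of the pathway, was at 35.5 ± 1.59 and 30.8 ± 2.39 FPKM and Ccn2, a target of it, at 14.6 ± 2.80 and 10.7 ± 2.53, each with an unadjusted p of at most 0.05. No gene of these lists was called.

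Paralogs of the 10 genes gave a further comparison. Of 22, 20 were tested, 13 had a log2 fold change above 0 (median 0.14), and 4 had an unadjusted p of at most 0.05, each higher in E. These were Thbs3 (7.14 ± 0.983 and 5.53 ± 0.308 FPKM), Thbs1 (108 ± 27.4 and 74.2 ± 24.3), Loxl1 (15.6 ± 5.04 and 9.97 ± 1.81) and Loxl3 (51.2 ± 3.67 and 39.6 ± 9.67), with adjusted p-values of 0.897 in edgeR. Loxl3 was thus the lysyl oxidase gene of the highest mean FPKM, above Lox itself (22.2 ± 17.8 and 14.6 ± 9.14 FPKM). Thbs1 was above Thbs2 in the mean of both groups. Loxl4, Smoc1 and Lrrc32 had log2 fold changes between -0.03 and 0.05. Pdgfrb, Tgfbi, Tnxb, Thbs4, Sparcl1, Smoc2, Spock2, Loxl2 and Lrrc17 were the other paralogs with at least 1 FPKM.

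Markers of other cell types moved with some of the 10 genes. Macrophage and monocyte markers (9 genes, with C1qb the most abundant, none at 0) summed to 1237 to 2350 CPM in E and 634 to 2066 in NE, with NE1 the lowest. The mean log2(CPM + 1) of this list correlated with Lox at 0.97 over the 10 tumors, at 0.97 without E5 and at 0.81 without the 2 tumors farthest from the median. Over the 10 tumors the same correlation was 0.85 for Fap, 0.84 for Fbn1, 0.81 for Postn and 0.73 for Pdgfra. Without the 2 farthest tumors these 4 values were 0.57, 0.15, -0.18 and 0.72. For Tnc it was 0.44 over the 10 tumors, for Sparc 0.37, for Tnn and Lrrc15 0.22 each, and for Thbs2 -0.12. Neutrophil markers (8 genes, none at 0) summed to 109 to 573 CPM in E and 79.7 to 152 in NE. Of these markers, 4 had an unadjusted p of at most 0.05 higher in E. Their mean log2(CPM + 1) was 5.52 in E5, 2.75 to 3.07 in the other tumors of E and 2.09 to 3.19 in NE. The correlation of their mean log2(CPM + 1) with the members ranged from 0.50 (Thbs2) to 0.91 (Pdgfra) over 10 tumors. Without E5 it turned to -0.20 for Thbs2 and was 0.28 for Sparc (0.89 with E5), 0.29 for Lrrc15 (0.68) and 0.66 for Pdgfra. Also without E5, it was 0.89 for Fbn1 (0.87), 0.92 for Lox (0.71) and 0.87 for Postn (0.74). The part of these cells in the values of the 10 genes was not tested. With the skeletal muscle score in the model, all 10 genes kept a log2 fold change above 0, Tnn at 3.50 and Lrrc15 at 2.09.

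**Figure D5:**
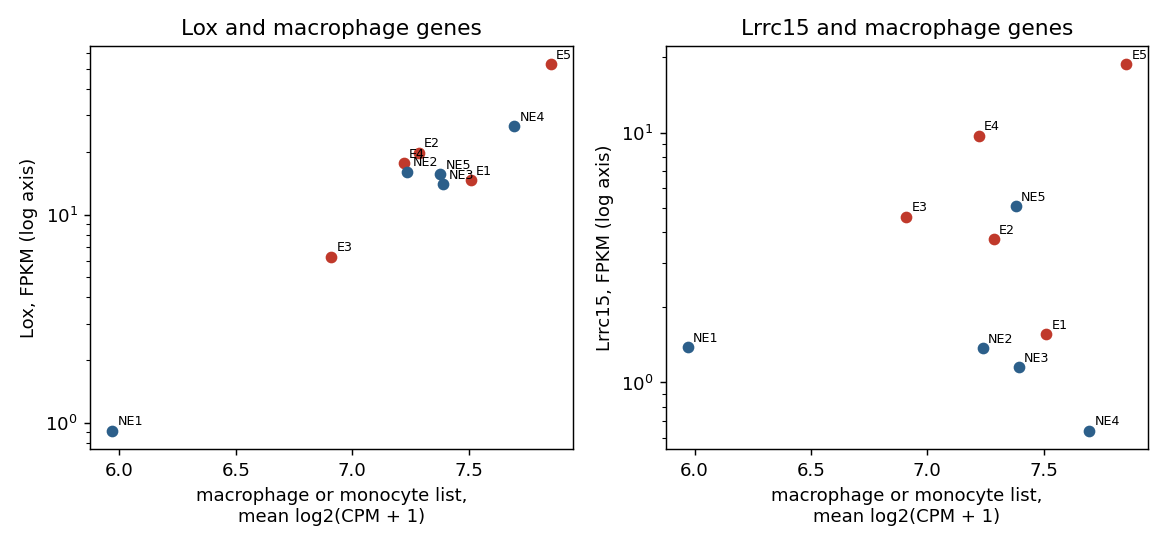
FPKM of Lox (left) and of Lrrc15 (right), each on a logarithmic axis, against the mean log2(CPM + 1) of the 9 macrophage or monocyte markers, with 1 point for each of the 10 tumors, red for E and blue for NE. Lox climbs with the markers from NE1 to E5, while Lrrc15 is lowest in NE4, the tumor with the second highest marker level.

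Genes whose pattern was most like that of the members were found by the correlation of log2(CPM + 1) across the 10 tumors. With the mean of the standardised values of all 10, Cthrc1 (r 0.98), Col6a3 (0.97), Lrrc17 (0.96) and Col12a1 (0.96) were among the closest, and these correlations were 0.90 to 0.96 without E5. Cthrc1 ranged from 0.353 to 15.1 FPKM. For Tnn and Lrrc15 the closest gene was each other, followed by Snn and Tnc for both. For Tnc they were Il13ra2, Lrrc15 and Osr2, for Fbn1 Adam12, Gpr153 and Col5a2, and for Postn Ms4a4a, Aspn and Mrc1. For Lox they were Lilra6, Hsd11b1 and Fcgr2b, each with an r of 0.98 or 0.99. Lilra6, Fcgr2b, Ms4a4a and Mrc1 are known from myeloid cells, and Aspn, Adam12 and Col5a2 from fibroblasts and matrix. For Fap they were Cyp1b1, Fam174b and Txndc16, for Pdgfra G0s2, Cdh2 and Rtn4rl2, for Thbs2 Padi3, Mmp14 and Tpp1, and for Sparc Wdfy3, Ptgfrn and Rnf144a.

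By the annotation in the deposited table, 8 of the 10 genes carried the term extracellular matrix, which 1.29% of the genes tested carry, and the exceptions were Fap and Pdgfra. The pathway focal adhesion held Pdgfra, Tnc, Tnn and Thbs2 (1.36% of genes tested), and ECM-receptor interaction held Tnc, Tnn and Thbs2 (0.54%). The genes were picked as matrix and fibroblast genes, so these terms describe the choice.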

How the data were processed

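The tumors were assigned to E and NE, with their replicate numbers, from the sample labels, which name no batch. The submitters' processing notes name Hisat2 2.0 for alignment and Stringtie 1.3.0 for expression. The authors deposited 1 table of 21959 genes, in which every tumor has raw counts (whole numbers, not normalized) and FPKM (counts scaled by gene length and library total). How the authors obtained the counts, and the genome build of the table, are not given in the sources used here, and the methods name a rat assembly although each gene has a mouse identifier. Gene positions were taken from GENCODE (GRCm38) and promoters from RefSeq (GRCm38.p6), and no coordinates were converted.

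The counts were normalized by TMM, filtered by filterByExpr and tested by the quasi-likelihood test of edgeR 4.0.16 under R 4.3.3, with Benjamini-Hochberg adjustment over all 13517 genes tested, and positive log2 fold changes mean higher in E. Calls needed a 2-fold change in either direction with an adjusted p no higher than 0.05. Alternatives were limma 3.58.1 (voom with weights on samples, or trend on FPKM as log2 with a pseudocount of 1), DESeq2 1.42.0, other scalings and filters, a replicate block, covariates and leaving out each tumor. The procedure was tested on simulated data. CPM include the TMM factor, except those beside Wilson intervals, which are scaled by the total count alone. The permutation test of depth ran in scipy 1.17.1 (Python 3.11.15). No pair of libraries was alike within sampling noise (smallest chi-square per degree of freedom between replicates 8.51). P-values measure the spread between these tumors, 1 library each.

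Named are the 10 members, paralogs with at least 1 FPKM on average, genes of each fibroblast or pathway list with the smallest p or the highest FPKM, the most abundant gene of other marker lists, and the genes closest in pattern, of which 1 is not reported here. The members and lists were chosen with earlier results of these data known. Reads per 1000 reference reads, the spread without NE1 or E5, the contractile genes without NE4 and the 2 sets of genes that ran together were derived after the values were seen.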

Additional observations from a re-analysis of the deposited data

Results flagged for a closer look

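In 8 of the 24 groups of 5 tumors examined, 1 tumor stood apart from its group by Dixon's test at the 95% level, where chance gives about 1.2. In E, the tumor was E5 each time: Pdgfra at 12.7 FPKM, Sparc at 976 FPKM, the sum of the 10 genes at 1342 FPKM and the sum of the pan-fibroblast reference list at 20722 CPM. E5 is also the shallowest library. In NE, NE5 stood high for Tnc (43.7 FPKM), Tnn (2.18 FPKM) and Lrrc15 (5.08 FPKM), whose levels correlated at 0.93 to 0.98 in pairs over the 10 tumors. NE1 stood low for Fbn1 (11.0 FPKM). The groups share tumors, the genes are correlated and the sum of the 10 genes is mostly Sparc, so these values are not 8 separate events. The chance count takes the groups as independent, so it cannot weigh the 8. Tnn and Lrrc15 were chosen by their values in these tumors, so their entries describe NE5 and are not a test.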

How the results depend on the processing

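No gene of the 8 listed by name was called under any alternative, and their adjusted p ranged from 0.360 to 0.9997 in edgeR, DESeq2 and limma. Over all genes, 0 were called under every alternative except a threshold of 2-fold with an unadjusted p no higher than 0.05, which gave 56. In that form, Postn passed with the replicate block (log2 fold change 1.16) and Tnc without NE5 (1.20). All 10 genes were above 0 under every test, scaling and filter, where the filter of at least 10 counts in every tumor left out Tnn. The values that turned below 0 were Fap (-0.43), Pdgfra (-0.18), Postn (-0.15) and Lox (-0.47) with the pan-fibroblast score as a covariate, Fap (-0.15), Pdgfra (-0.081) and Lox (-0.058) without E5, and Fap (-0.05) without NE1. The cause was not tested. Leaving out each tumor in turn gave 2.24 to 5.17 for Tnn, the last without NE5, 1.32 to 2.73 for Lrrc15, 0.43 to 1.45 for Postn and 0.46 to 1.20 for Tnc. For the other genes the ranges were -0.15 to 0.65 for Fap, -0.081 to 0.25 for Pdgfra, 0.04 to 0.21 for Thbs2, 0.13 to 0.32 for Sparc, 0.20 to 0.53 for Fbn1 and -0.058 to 0.91 for Lox. Of the comparisons added after seeing the data, the SD of E minus that of NE turned to 0.90 for Postn and 0.64 for Lox without NE1 (-0.78 and -1.12 without E5), and the mean FPKM of E minus NE turned to 1.51 for Tpm1 and 11.8 for Tpm2 without NE4. The median correlation among the genes was 0.74 on log2(FPKM + 1), and 0.55 (without E5) to 0.76 when each tumor was left out.

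The paper describes the sequenced tumors as 5 matched pairs, and the sample labels do not say how they were matched. With the group means subtracted, same-numbered tumors correlated between -0.32 and 0.32. Of the 5 tumors of E, 1 (E5) correlated best with its own number. These correlations cannot decide whether the tumors were paired by design. With the replicate number as a block, 0 genes and 0 of the members were called. Depth limits Tnn most, since 5 to 22 reads stood behind it in 5 tumors.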
